A study of Mus musculus with 2 samples.

Results

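IL-17 T nuclei are described here: Cd3-positive nuclei of intestinal CD4+ effector T-cell sorts that carried at least 1 RNA molecule of Il17a or Il17f, the genes of the cytokines IL-17A and IL-17F. They were selected on their counts of Il17a and Il17f. Of 6614 deposited barcodes, 76 met the rule, 32 in the knockout library and 44 in the control library. A nucleus had at least 500 unique molecular identifiers (UMIs, each 1 counted RNA molecule), at least 1 UMI over Cd3d, Cd3e and Cd3g, no UMI of Kit, Ncr1 or Arg1, which mark innate lymphoid cells and myeloid cells, and no UMI of Foxp3 or Il10. The knockout library came from CD4creZfp362flox/flox mice, in which Cre driven by Cd4 regulatory sequence recombines the floxed gene of a zinc-finger protein in cells of the T lineage. Control nuclei were those of Zfp362flox/flox mice, which carry the floxed alleles without the Cre. Mice of both groups were 26 to 33 weeks old, and cells of colon and small intestine were pooled and sorted as CD4+CD44+CD62L- cells that lacked CD8a, CD11c, CD45R and F4/80. RNA and open chromatin were read in the same nuclei with the 10x Multiome kit. Each genotype had 1 library and the design names 7 mice without saying whether of each genotype. Animals cannot be told apart, no test across samples exists, and the 95% intervals given throughout hold for counting error alone.

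IL-17A and IL-17F are secreted by T helper 17 (Th17) cells and by innate lymphoid cells of the gut wall, where they act on epithelium and draw in neutrophils. In mice the pair of genes lie next to each other, and STAT3, BATF, IRF4 and RUNX1 are among the factors known to take part in switching them on. IL-23, read by the receptor chain Il23r, and IL-1, read by Il1r1, sustain IL-17 and IL-22 production, and the chemokine receptor Ccr6 marks many of these cells.

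Both genes lie on chromosome 1 (GRCm38), Il17a at chr1:20730905-20734496 on the plus strand and Il17f at chr1:20777146-20790617 on the minus strand. The 250 bases before the RefSeq start of each gene lie inside a deposited accessibility peak in each library, and they are shown with those of Il23r (chr6:67422932-67491855, minus strand), the highest gene among those called in both libraries below. The RefSeq start of Il17f lies inside the longer gene body just given. Sequences are RefSeq's on GRCm38.p6, with capitals marking matches on either strand to the nuclear receptor half-site AGGTCA, the RUNX motif TGTGGT, the AP-1 motif TGANTCA, the STAT motif TTCNNNGAA and the TATA box TATAAA.
Il17a, chr1:20730655-20730904, plus strand: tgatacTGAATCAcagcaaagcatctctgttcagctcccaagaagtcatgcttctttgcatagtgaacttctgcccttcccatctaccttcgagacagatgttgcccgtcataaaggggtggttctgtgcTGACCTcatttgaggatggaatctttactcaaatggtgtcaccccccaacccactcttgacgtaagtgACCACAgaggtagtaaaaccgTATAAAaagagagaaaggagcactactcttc
Il17f, chr1:20784271-20784520, minus strand: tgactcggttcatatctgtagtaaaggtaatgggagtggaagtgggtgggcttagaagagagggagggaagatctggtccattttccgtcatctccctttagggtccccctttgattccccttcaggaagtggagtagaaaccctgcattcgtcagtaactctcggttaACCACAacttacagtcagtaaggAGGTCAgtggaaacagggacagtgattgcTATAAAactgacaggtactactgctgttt
Il23r, chr6:67491856-67492105, minus strand: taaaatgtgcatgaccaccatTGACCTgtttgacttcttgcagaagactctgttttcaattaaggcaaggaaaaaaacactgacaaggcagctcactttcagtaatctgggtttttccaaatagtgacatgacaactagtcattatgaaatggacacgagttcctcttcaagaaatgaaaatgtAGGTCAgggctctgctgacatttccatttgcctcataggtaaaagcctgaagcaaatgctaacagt
Il17a and Il17f each held 1 half-site, 1 RUNX match and 1 TATA box, Il17a also held 1 AP-1 match, and Il23r held 2 half-sites. None of the 3 windows held the STAT motif, and no matches overlapped. Of 32807 windows of the same length, 14% held the half-site, 14% the RUNX motif, 6.75% the AP-1 motif, 7.02% the STAT motif and 12.4% the TATA box. A match is a description of these letters and not a bound site.

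The UMIs that chose the nuclei were few and uneven. Knockout nuclei held 92 UMIs of Il17a and 21 of Il17f, and control nuclei held 151 of Il17a and 55 of Il17f. In the knockout library 19 nuclei had Il17a alone, 7 had Il17f alone and 6 had both, and in the control library the numbers were 22, 13 and 9. Most nuclei thus showed 1 of the pair at this depth. The median nucleus had 2 UMIs of the pair in each library, the highest had 21 in the knockout and 29 in the control library, and the 5 highest nuclei held 50.4% and 42.2% of all UMIs of the pair.

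**Figure D1:**
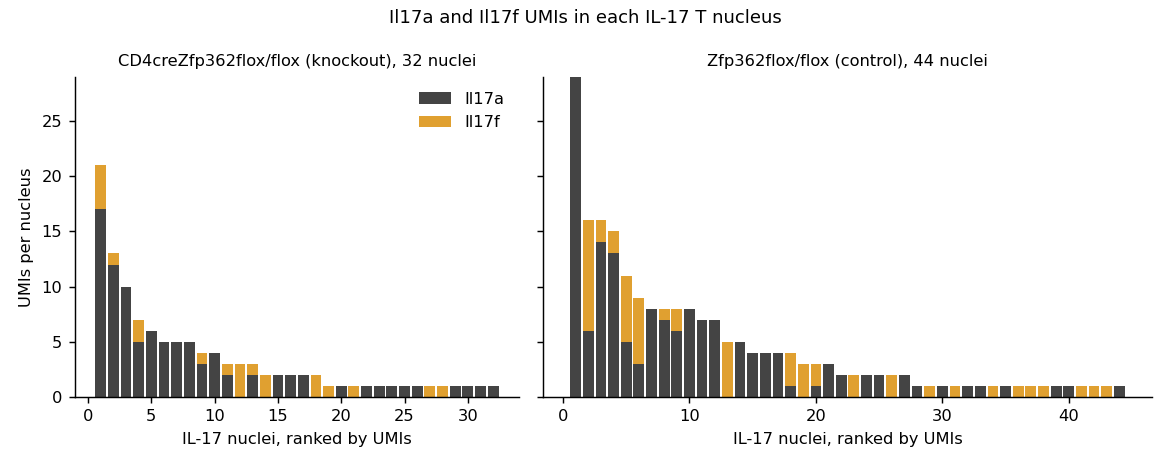
UMIs of Il17a (dark) and Il17f (light) in each IL-17 T nucleus, ranked within its library, with the 32 knockout nuclei on the left and the 44 control nuclei on the right. The highest nucleus held 21 UMIs in the knockout and 29 in the control library, and 14 and 17 nuclei held exactly 1.

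At the edge of the rule, 14 knockout and 17 control nuclei had exactly 1 UMI of the pair, and 743 knockout and 1532 control nuclei met every other condition with none. Nuclei with exactly 1 UMI had Il23r in 8 of 14 (knockout) and 13 of 17 (control), against 93 of 743 and 132 of 1532 just outside. Nuclei that failed only by 1 UMI of Kit, Ncr1 or Arg1 numbered 18 (knockout) and 20 (control), with Il23r in 15 of each. Nuclei that failed only for want of a Cd3 UMI numbered 17 (knockout) and 37 (control), with Il23r in 14 and 27. Nuclei that failed only by 1 UMI of Foxp3 or Il10 numbered 6 (knockout) and 7 (control), with Il23r in 5 and 3. By these counts Il23r was in most nuclei just outside the conditions on Cd3 and on Kit, Ncr1 and Arg1, and in a small part of those just outside the condition on Il17a and Il17f. These sets were not matched in depth. Median UMIs (knockout and control) were 5971 and 3573.5 at the Kit, Ncr1 and Arg1 edge and 2136 and 1939 at the Cd3 edge. They were 6306 and 3806 at the Foxp3 and Il10 edge. Nuclei with exactly 1 UMI of the pair had 2722.5 and 2271, and those with none 2205 and 1961.5.

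IL-17 T nuclei were 32 of 775 otherwise eligible knockout nuclei (4.13%, Clopper-Pearson 95% interval 2.84 to 5.78) and 44 of 1576 control nuclei (2.79%, 2.04 to 3.73), at median depths of 2231 and 1975.5 UMIs over eligible nuclei. After thinning every nucleus to 1000 UMIs, which left out 22 knockout and 43 control nuclei, the shares were 1.59% (0.826 to 2.77) and 1.83% (1.22 to 2.63), so the order of the libraries turned and their intervals overlapped. At the same thinned depth, Foxp3-positive Cd3-positive nuclei were taken as a comparison set, and whether they lack these cytokines was not tested. They had a UMI of the pair in 2.26% (0.468 to 6.45) of knockout and 2.48% (1.00 to 5.05) of control nuclei. Their median depths before thinning were 2784 and 2413 UMIs. Il10-positive, Foxp3-negative nuclei with Cd3, also outside the rule, had it in 7.34% (3.22 to 14.0) of knockout and 1.40% (0.289 to 4.02) of control nuclei after thinning. The eligible nuclei's share lay below that of the Foxp3-positive nuclei in each library, within their interval, so neither expression nor a difference between libraries is read from it. Cd3-negative nuclei with Kit, Ncr1 or Arg1 had it in 9.13% (6.76 to 12.0) of knockout and 8.35% (6.57 to 10.4) of control nuclei after thinning.

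The make-up of the UMIs that chose the nuclei is given as a description. Il17f made up 18.6% (11.9 to 27.0) of UMIs of the pair in knockout and 26.7% (20.8 to 33.3) in control IL-17 T nuclei. In Cd3-negative nuclei with a UMI of the pair it made up 89.8% (85.6 to 93.0) of 98 knockout nuclei's UMIs and 85.6% (82.1 to 88.7) of 155 control nuclei's UMIs. These intervals treat UMIs as independent, although 5 nuclei held 50.4% (knockout) and 42.2% (control) of the UMIs of IL-17 T nuclei, and no difference between the sets is read from them. Cd3-positive IL-17 nuclei with Kit, Ncr1 or Arg1 lay between, at 54.9% (50.1 to 59.6) in 107 knockout and 73.2% (67.0 to 78.7) in 72 control nuclei, and their median depths were 10938 and 5266 UMIs. Among IL-17 T nuclei with 1 UMI of the pair, the share was 28.6% (8.39 to 58.1) in the knockout and 52.9% (27.8 to 77.0) in the control library. Counting each control nucleus once by its larger gene gave 40.9% for Il17f in place of 26.7%. These are shares of UMIs, not levels of a pair of genes compared per length.

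**Figure D2:**
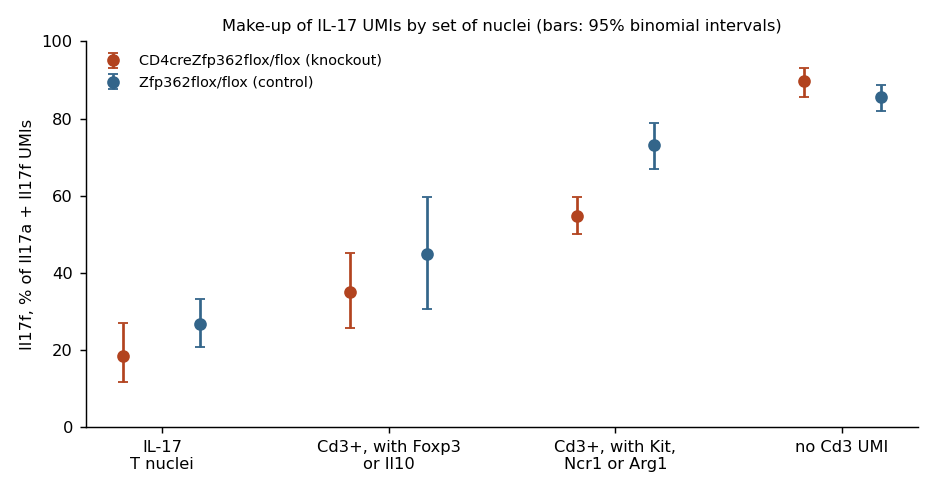
Share of Il17f among all Il17a and Il17f UMIs (percent, 95% binomial intervals) in 4 sets of nuclei, knockout left of control in each. IL-17 T nuclei sit at 18.6% and 26.7%, and nuclei without a Cd3 UMI at 89.8% and 85.6%.

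Each IL-17 T nucleus was set beside 3 eligible nuclei of its own library with no UMI of the pair and the nearest total UMIs, 96 in the knockout and 132 in the control library. Median depths were 2849.5 UMIs for knockout IL-17 T nuclei and 2846.5 for their matched nuclei, and 2346 for both sets of the control library. Above 4000 UMIs lay 9 IL-17 T nuclei of each library. Median peak fragments were 4994.5 (IL-17 T) and 4868.5 (matched) in the knockout library and 3909.5 and 3480 in the control library. The libraries shared 11 barcodes. The label was checked with markers outside the rule: Trac, the constant region of the αβ receptor, was found in 27 of 32 knockout IL-17 T nuclei (matched 79 of 96) and in 24 of 44 control ones (matched 104 of 132). Cd4, which the sort required as protein, was found in 25 of 32 knockout IL-17 T nuclei (matched 82 of 96) and 14 of 44 control ones (matched 62 of 132). Trac was thus in 84.4% of knockout IL-17 T and 82.3% of matched nuclei, and in 54.5% and 78.8% in the control library. Cd4 was in a smaller part of IL-17 T than of matched nuclei in both libraries. Of 13 T-cell receptor genes, 4 in each library had an interval of the IL-17 T over matched log2 ratio below 0. None had one above 0. Over all genes, 7.37% (knockout) and 6.42% (control) lay below. Trbc1 was below in both, at -1.14 (-1.79 to -0.58) and -0.61 (-1.15 to -0.13). Trdc, the γδ counterpart of Trac, had 0 UMIs in IL-17 T nuclei of either library. Matched nuclei had 1 UMI of Trdc in each library, so it was too rare to check the label. Cd8a had 0 UMIs in IL-17 T and matched nuclei of both libraries, after a sort against CD8a.

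The receptor chain Il23r (ENSMUSG00000049093) was the highest of the genes called in both libraries. Knockout IL-17 T nuclei held 74 UMIs, in 22 of 32 nuclei, and their matched nuclei 46 UMIs, in 14 of 96. Control IL-17 T nuclei held 99 UMIs, in 28 of 44 nuclei, and their matched nuclei 27 UMIs, in 13 of 132. In UMIs per 1000000 (CPM) the levels were 667 (IL-17 T) and 138 (matched) in the knockout library, at log2 2.26 (1.72 to 2.83), and 750 and 68.2 in the control library, at log2 3.44 (2.83 to 4.13). Without nuclei above 4000 UMIs the knockout ratio was 3.14, and with 1 matched nucleus each the control ratio was 4.46. All log2 ratios of IL-17 T over matched nuclei were taken on CPM with 0.5 UMI added. Ccr6, also a marker of the label, had 9 UMIs (IL-17 T) and 11 (matched) in the knockout library, with an interval of -0.15 to 2.70, and 13 and 7 in the control library, a log2 ratio of 2.43 (1.04 to 4.04).

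The list of 20 Th17 genes lay higher in IL-17 T nuclei of both libraries. Its median log2 ratio was 0.99 in the knockout and 0.88 in the control library over the 14 genes measured with at least 20 UMIs, against -6.5e-05 and -0.02 over all genes measured. In the knockout library 8 of the 14 had an interval wholly above 0 and none wholly below, where 8% of all 3662 genes lay above. In the control library it was 9 of 14 and none, where 7.65% of 4145 genes lay above. The genes Il1r1, Tmem176a and Tmem176b had intervals above 0 in both libraries. By the limits given below they were called higher in the control library alone. Il1r1, a chain of the IL-1 receptor, had 29 UMIs (IL-17 T) and 21 (matched) in the knockout, a log2 ratio of 2.04 (1.19 to 2.93), and 47 and 25 in the control library, 2.48 (1.76 to 3.26). In the knockout 1 nucleus held 31.0% of the Il1r1 UMIs. Tmem176a, a membrane protein gene, had log2 ratios of 1.73 (0.74 to 2.74) and 2.49 (1.66 to 3.39), and its neighbour Tmem176b of 1.52 (0.56 to 2.47) and 2.47 (1.72 to 3.28). In the knockout Tmem176a had 20 UMIs (IL-17 T) and 18 (matched), and Tmem176b 20 and 21. There 1 nucleus held 25% of the Tmem176b UMIs.

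Il22, the gene of the epithelium-directed cytokine IL-22, had 82 UMIs (IL-17 T) and 46 (matched) in the knockout and 167 and 14 in the control library. These UMIs lay in 10 of 32 knockout and 10 of 44 control IL-17 T nuclei, and 1 nucleus held 31.7% and 30.5% of them, so Il22 did not pass the limit of 20% for a single nucleus. The knockout nuclei with Il17f alone, 7 in number, held 47 of the 82 UMIs. Reads of Il22 may also be split with its near-identical copy Iltifb. Transcription factors differed less. Rora, a nuclear receptor, had log2 ratios of 0.57 (0.38 to 0.75) in the knockout and 0.32 (0.14 to 0.50) in the control library, and Maf, a factor of Th17 and IL-10 producing cells, 0.67 (0.28 to 1.04) and 0.81 (0.45 to 1.15). Irf4 had 1.39 (0.44 to 2.31) and 0.72 (-0.19 to 1.55). Stat3, Hif1a, Batf and Ahr had intervals that included 0 in both libraries, and Ccl20 was at 0 UMIs in all 4 sets of nuclei.

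A gene was called higher or lower when it had at least 50 UMIs over IL-17 T and matched nuclei, differed at least 2-fold with an interval that excluded 0, and had at most 20% of the higher group's UMIs in 1 nucleus. By that rule 24 of 1777 knockout genes (1.35%) and 41 of 2114 control genes (1.94%) were higher, and 66 (3.71%) and 75 (3.55%) were lower. Of 1714 genes measured in both libraries, 7 were higher (0.408%) and 8 lower (0.467%) in both, and none was called in opposite directions. Beside Il23r, the 7 included Icos, a costimulatory receptor of helper T cells, with log2 ratios of 1.07 (0.76 to 1.36) in the knockout and 1.22 (0.95 to 1.48) in the control library, and Il18r1, a chain of the IL-18 receptor, with 1.11 (0.67 to 1.54) and 1.02 (0.60 to 1.42). Nmrk1, a nicotinamide riboside kinase of NAD synthesis, had 1.38 (0.72 to 2.03) and 1.83 (1.04 to 2.65). Notch2, a receptor of cell-cell signalling, had 1.27 in the knockout and 1.26 in the control library, Atf6, a sensor of endoplasmic reticulum stress, 1.27 and 1.16, and Gpx1, a glutathione peroxidase, 1.44 and 1.10. The 8 lower genes were Scml4, Crebrf, Lrig1, Mctp2, Gimap8, Atp13a3, Srcap and Hat1. Without nuclei above 4000 UMIs, the knockout ratios of Notch2 and Atf6 were 2.24 and 2.18. Against all unmatched nuclei Icos was at 0.87 in the knockout library, and Il18r1 at 0.77 and Gpx1 at 0.98 in the control library. Lrig1, a membrane regulator of growth factor receptors, had 17 UMIs (IL-17 T) and 118 (matched) in the knockout, a log2 ratio of -1.18 (-2.04 to -0.47), and 20 and 163 in the control library, -1.41 (-2.19 to -0.77). Each of the 8 was less than 2-fold lower in at least 1 library under at least 1 other choice of nuclei. Without nuclei above 4000 UMIs the knockout ratios of Lrig1, Scml4, Atp13a3 and Gimap8 were -0.03, -0.29, -0.50 and -0.98, and the control ratios of Srcap and Hat1 were -0.82 and -0.78. With at least 2 UMIs of the pair the knockout ratios of Scml4, Atp13a3, Lrig1 and Srcap were -0.53, -0.55, -0.83 and -0.66, and the control ratios of Srcap and Atp13a3 were -0.32 and -0.98. With 1 matched nucleus each Crebrf was at -0.64 in the knockout and -0.80 in the control library, and against all unmatched nuclei Mctp2 was at -0.82 in the control library. Hat1, a histone acetyltransferase, ended at the limit in the control library, with an upper bound of -0.00.

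Cytokine receptors differed in both directions. Of 16 receptor genes, 13 were measured in each library, with 7 intervals above and 3 below 0 in the knockout, where 8% and 7.37% of all genes did so, and 6 and 2 in the control library, where 7.65% and 6.42% did. Il2rb, a chain of the IL-2 and IL-15 receptors, had log2 ratios of 0.84 (0.35 to 1.31) and 1.09 (0.67 to 1.49), and Il7r, a chain of the IL-7 receptor, 1.03 (0.63 to 1.42) and 0.52 (0.11 to 0.91). Il1rl1, the IL-33 receptor of Th2 and regulatory T cells, was lower, at -1.20 (-2.66 to -0.13) and -1.65 (-3.11 to -0.62). Of 10 Th2 genes, 3 were measured in the knockout, with a median of -0.84, and 5 in the control library, with a median of -0.90. All 3 knockout intervals and 4 of the 5 control ones lay below 0, where 7.37% and 6.42% of all genes did, and Ccr4, a chemokine receptor, was higher in the control library, at 1.21 (0.03 to 2.32). Gata3, the Th2 master factor, had -0.81 (-1.66 to -0.11) and -0.90 (-1.52 to -0.37), and Areg, the gene of the repair factor amphiregulin, -0.84 (-1.78 to -0.08) and -0.81 (-1.63 to -0.13).

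Th1 genes, those of interferon-γ producing cells, showed another pattern in each library. In the control library 9 of 12 measured genes had intervals below 0 and none above, where 6.42% of all genes lay below, and the median log2 ratio was -1.35. In the knockout library 1 of 11 lay below and 1 above 0, where 7.37% and 8% of all genes did, and the median was -0.17. Ifng itself was low in both, with 4 UMIs (IL-17 T) and 39 (matched) in the knockout, a log2 ratio of -1.55 (-3.65 to -0.23), and 9 and 102 in the control library, -1.85 (-3.09 to -0.94). In the knockout 1 matched nucleus held 33.3% of the 39 UMIs, over the limit of 20%. Ccl5, the gene of a chemokine of Th1 and cytotoxic cells, had 26 UMIs (IL-17 T) and 89 (matched) in the knockout, -0.17 (-0.88 to 0.45), and 8 and 164 in the control library, -2.69 (-4.01 to -1.76). Il12rb2, the inducible chain of the IL-12 receptor, had 57 and 222 UMIs in the knockout, -0.37 (-0.82 to 0.05), and 12 and 213 in the control library, -2.51 (-3.54 to -1.73). These UMIs were not spread evenly over the knockout nuclei. The 14 knockout nuclei with a single UMI of the IL-17 pair held 24 of the 26 Ccl5 UMIs and 49 of the 57 Il12rb2 UMIs, and the 18 with 2 or more held 2 and 8. The 17 control nuclei with a single UMI held 0 and 5. Taking only nuclei with at least 2 UMIs of the pair, an alternative chosen after the data were seen, the Th1 median was -0.69 in the knockout and -1.38 in the control library.

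**Figure D3:**
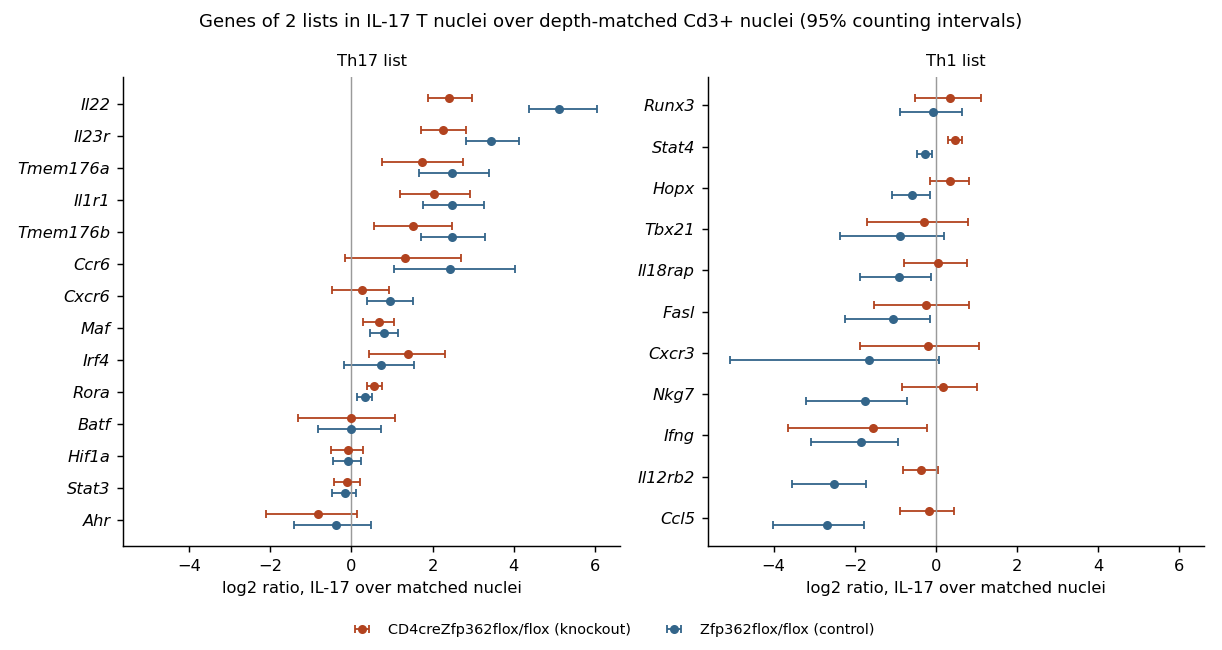
Log2 ratios of IL-17 T over depth-matched nuclei with 95% counting intervals for the genes of the Th17 list (left) and Th1 list (right) that had at least 20 UMIs in both libraries, knockout above control. Il23r, Il22, Il1r1, Tmem176a and Tmem176b lie right of 0 in both libraries, while Ccl5 and Il12rb2 lie left of 0 with intervals clear of it in the control library and with intervals that include 0 in the knockout library.

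The nuclei above 4000 UMIs, 9 in each library, were set beside the shallower ones, and detection of a gene also depends on depth. Il23r was found in 8 of 9 knockout and 6 of 9 control nuclei above 4000 UMIs, against 14 of 23 and 22 of 35 up to that depth. Its level was 439 CPM (278 to 659) in knockout and 510 CPM (336 to 742) in control nuclei above 4000 UMIs, and 872 (649 to 1146) and 909 (711 to 1145) CPM up to it. Icos had 973 CPM (725 to 1280) and 926 CPM (685 to 1224) above 4000 UMIs, and 1846 (1514 to 2229) and 2096 (1790 to 2441) CPM up to it. Both genes were thus lower per UMI in the deep nuclei, with Icos intervals apart in each library. Cd74 went the other way in the knockout library, with 71 of its 76 UMIs in the 9 deep nuclei.

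Several of these genes were lower in IL-17 T nuclei than in IL-17 nuclei without a Cd3 UMI. Il22 stood at 739 CPM (588 to 918) in knockout and 1264 CPM (1080 to 1471) in control IL-17 T nuclei, against 4243 (4004 to 4493) and 5962 (5720 to 6211) CPM in the 98 and 155 nuclei without Cd3. Il23r stood at 667 and 750 CPM in IL-17 T nuclei, against 1564 (1420 to 1718) and 1468 (1350 to 1595) CPM without Cd3. Icos ran in the opposite order, at 1434 CPM (1219 to 1675) and 1628 CPM (1417 to 1860) in IL-17 T nuclei, against 534 (452 to 628) and 570 (497 to 651) CPM without Cd3. At least 1 of Il23r, Il22, Il1r1 and Ccr6 was found in 27 of 32 knockout and 33 of 44 control IL-17 T nuclei, against 25 of 96 and 27 of 132 matched nuclei.

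Genes of other cell types had few UMIs in IL-17 T nuclei, apart from those of antigen presentation. Epithelial genes, 8 in number, held 4 UMIs in knockout and 0 in control IL-17 T nuclei, and 4 genes of CD8 T and natural killer cells held 0 and 1. The 8 γδ T-cell genes found in the files held 13 UMIs in knockout IL-17 T nuclei and 25 in matched ones, or 117 and 75.1 CPM, and 17 and 21 in the control library, or 129 and 53.1 CPM. Of these, 5830411N06Rik had 6 (IL-17 T) and 3 (matched) UMIs in the knockout, a log2 ratio of 2.48 (0.36 to 5.21), and 10 and 2 in the control library, 3.65 (1.67 to 7.14). Of its UMIs in IL-17 T nuclei, 1 nucleus held 66.7% in the knockout and 60% in the control library. B-cell genes, 8 in number, held 19 UMIs in IL-17 T and 92 in matched nuclei of the knockout and 11 and 3545 of the control library. Of these Igkc, an immunoglobulin light chain gene, had 19 (IL-17 T) and 85 (matched) in the knockout and 9 and 3523 in the control library, where 1 matched nucleus held 99.0%, while Ms4a1, Pax5 and Ebf1 were at 0 in all 4 sets of nuclei. Myeloid and antigen-presentation genes summed to 130 UMIs in the knockout and 23 in the control IL-17 T nuclei, with matched sums of 70 and 93. Of the 9 genes, Itgax, Lyz2, Csf1r and Adgre1 were at 0 in all 4 sets of nuclei. Most of the rest was Cd74, the MHC class II chaperone, with 76 UMIs in 9 of 32 knockout nuclei, 1 nucleus holding 50%, and 13 UMIs in 8 of 44 control nuclei. The part of these genes' cells in the results was not tested. Of the ILC3 list, the genes of IL-17 producing innate lymphoid cells, 7 genes were measured in the knockout and 8 in the control library, with medians of 0.43 and 0.36. Intervals lay above 0 for 3 and below for 2 in the knockout, where 8% and 7.37% of all genes did so, and above for 3 and below for 1 in the control library, where 7.65% and 6.42% did. Il1r1, which also belongs to the Th17 list, had the highest ratio of those measured. Tnfsf11, the gene of the cytokine RANKL, had 55 UMIs (IL-17 T) and 123 (matched) in the knockout, 0.43 (-0.06 to 0.89), and 70 and 77 in the control library, 1.45 (0.96 to 1.93), where it was called higher. Nrp1, a coreceptor, had 19 and 15 UMIs in the control library, a log2 ratio of 1.91 with a lower bound of 0.87, and Eya1, a transcription cofactor, had 4 and 1 in the knockout and 11 and 2 in the control library. Kit had 0 UMIs by the rule, yet peaks within 50 kb of Kit held 26 fragments (IL-17 T) and 18 (matched) in the knockout library, at log2 1.93 (1.02 to 2.90), and 10 and 12 in the control library, 1.21 (-0.17 to 2.54). The part of Kit-expressing cells in the results was not tested.

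Open chromatin, which the rule did not use, was higher around the genes that chose the nuclei. Within 50 kb of Il17a and Il17f, knockout IL-17 T nuclei had 64 fragments and their matched nuclei 62, or 316 and 115 fragments per 1000000 in peaks (FPM), a log2 ratio of 1.46 (0.94 to 1.99). Control IL-17 T nuclei had 59 fragments and their matched nuclei 51, or 299 and 93.6 FPM, 1.67 (1.11 to 2.25). Over the 10 peaks from the Il17a promoter to the far end of Il17f, 21 of 32 knockout IL-17 T nuclei had a fragment against 20 of 96 matched ones, and 22 of 44 control IL-17 T nuclei against 18 of 132. Accessibility was therefore higher at the locus in both libraries. Nuclei with a single UMI of the pair had 112 (51.4 to 213) FPM over these peaks in the knockout library, where they were 14, and 211 (113 to 362) in the control library, where they were 17, against 51.8 (34.4 to 74.8) and 36.7 (22.4 to 56.7) in matched nuclei. The knockout interval of those 14 nuclei overlapped that of its matched nuclei, and the control interval did not.

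The fragments lay in a few peaks, whose positions are those of the knockout library. At the peak chr1:20730362-20731333, which holds the Il17a promoter printed above, there were 7 fragments in IL-17 T and 1 in matched nuclei of the knockout and 6 and 3 of the control library. At chr1:20783945-20784859, which holds the printed Il17f promoter, there were 8 and 3 in the knockout and 10 and 1 in the control library. The intergenic peak chr1:20740233-20741147, 9.785 kb from the start of Il17a, had 14 and 9 fragments in the knockout, at log2 2.03 (0.74 to 3.44), and 10 and 4 in the control library, 2.69 (0.99 to 4.91). It was the highest peak in the knockout IL-17 T nuclei, and in the control ones it and the Il17f promoter peak had equal fragments. All 3 peaks had intervals above 0 in IL-17 T nuclei of both libraries. At the promoter of the neighbouring Mcm3, a replication gene, the direction was the other one, with 3 fragments in IL-17 T and 24 in matched nuclei of the knockout and 5 and 22 of the control library, log2 ratios of -1.39 (-3.96 to 0.14) and -0.57 (-2.43 to 0.76).

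**Figure D4:**
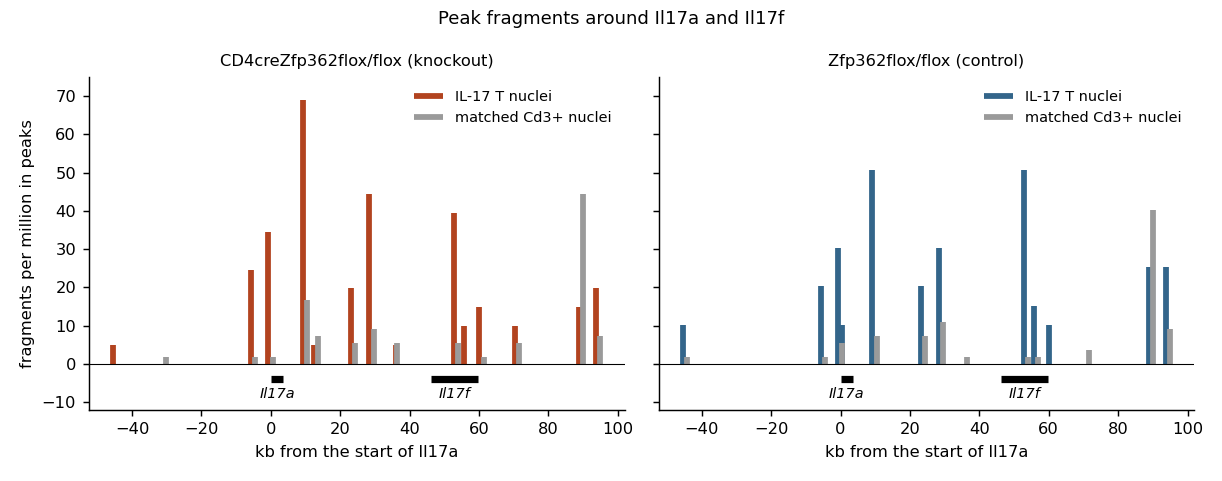
Fragments per 1000000 in peaks (vertical axis) at each shared peak within 50 kb of Il17a and Il17f, by distance of the peak's centre from the start of Il17a in kb, for IL-17 T nuclei (coloured) and matched nuclei (grey), knockout left and control right. The black bars are the gene bodies; the peak 9.785 kb from the Il17a start is the highest in the IL-17 T nuclei of the knockout library.

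Among windows of 50 kb around every protein-coding gene, 0.722% of 15509 in the knockout and 0.891% of 15487 in the control library were at least 2-fold higher with an interval above 0, and 33 were so in both. The window of Il17a was first of these by the smaller of its log2 ratios, at 2.14 in the knockout and 2.52 in the control library, with those of Il1r1 at rank 14 and Il17f at rank 16. Ranks 2 to 5 were Krt25, Fam50b, BC053393 and Rhobtb1, none of them a gene of the lists, with the smaller ratio between 1.54 and 1.91. Blk, a kinase gene of the γδ list, was at rank 29, with 1.10 and 2.09. The windows of 5830411N06Rik and Cd163l1, also of that list, were called higher in the control library alone, at 1.66 and 1.60. No window of another gene of that list was called higher. Windows of neighbouring genes share peaks. Il1r1 had 51 fragments (IL-17 T) and 50 (matched) in the knockout, 1.44 (0.85 to 2.04), and 41 and 43 in the control library, 1.40 (0.74 to 2.05). Ccr6 had log2 ratios of 1.00 (0.52 to 1.47) and 0.78 (0.30 to 1.23). Il23r, the highest gene called in both libraries by RNA, had 0.60 (-0.01 to 1.17) and 0.75 (0.06 to 1.40). Its promoter peak held 3 and 1 fragments in the knockout and 1 and 2 in the control library, too few to compare. The windows of Rora (0.09 and -0.19) and Tbx21 (-0.21 and -0.23) had intervals that included 0 in both libraries.

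Over single peaks, 151 of 10621 knockout peaks (1.42%) and 135 of 10754 control peaks (1.26%) were at least 2-fold higher with at least 20 fragments and an interval above 0, and 168 (1.58%) and 238 (2.21%) were lower. Of 9474 overlapping pairs, 1 was higher (0.0106%) and 7 were lower (0.0739%) in both libraries. The higher pair lay in an intron of Sept11, with log2 ratios of 1.31 (0.04 to 2.55) and 1.47 (0.29 to 2.64). The 5 lowest of the 7 lay in an exon of Fosb, in an intron of Wwox and at the promoters of Cdk6, Ets2, and Cog5 with Dus4l. The exonic Fosb peak had -2.19 (-4.73 to -0.75) and -2.48 (-5.88 to -0.83). RNA of Fosb, an AP-1 subunit, went the other way, with log2 ratios of 0.89 (0.52 to 1.25) in the knockout and 1.05 (0.68 to 1.41) in the control library.

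Between genotypes, knockout IL-17 T nuclei differed from control ones in few genes past the same limits, 12 higher (1.21%) and 9 lower (0.908%) of 991 measured. With 1 library per genotype, genotype and library cannot be told apart. The counts rest on few nuclei: without nuclei above 4000 UMIs they were 4 and 8, and with every nucleus thinned to 1000 UMIs they were 5 and 0. Zfp362 had 1 UMI in the knockout and 2 in the control IL-17 T nuclei, and 3 and 1 in the matched nuclei, too few to check the deletion, and the labels do not state the deleted exons.

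Il17a and Il17f, used by the rule, together had 1019 CPM in knockout and 1560 CPM in control IL-17 T nuclei, given as a description. Il23r, at 667 and 750 CPM, had a log2 ratio of knockout over control of -0.17 (-0.62 to 0.28). Rora had 0.22 (0.00 to 0.44) and Maf -0.01 (-0.43 to 0.41). Of 14 Th17 genes measured here, 1 had an interval above and 2 below 0, and their median was -0.25, where the median of all 2361 genes was 0.02, and 7.41% and 7.2% of these genes had such intervals. The 2 below 0 were Il22, at -0.77 (-1.17 to -0.38), and Tmem176b, at -0.83 (-1.70 to -0.06). For Il22 1 nucleus held 30.5% of the control UMIs, over the limit of 20%. Matched nuclei had the opposite direction for Il22, with a log2 ratio of knockout over control of 1.93 (1.08 to 2.94). Their ratio was 0.12 (-0.81 to 1.04) for Tmem176b and 1.01 (0.30 to 1.76) for Il23r. Of 7 Th1 genes 3 had an interval above and none below 0, with a median of 0.75: Ccl5, at 1.89 (0.77 to 3.31), Il12rb2, at 2.45 (1.58 to 3.53), and Stat4, at 0.62 (0.40 to 0.85). For Ccl5 1 nucleus held 26.9% and for Il12rb2 21.1% of the knockout UMIs, over the limit of 20%, and 24 of the 26 and 49 of the 57 UMIs lay in nuclei with a single UMI of the IL-17 pair, as given above. In matched nuclei the log2 ratios of knockout over control were -0.63 (-1.02 to -0.25) for Ccl5, 0.31 (0.03 to 0.59) for Il12rb2 and -0.13 (-0.26 to 0.00) for Stat4.

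Among the called genes, the highest was Cct6a, a subunit of the CCT chaperonin, with 53 UMIs in 17 of 32 knockout nuclei and 19 in 12 of 44 control nuclei, at log2 1.71 (0.95 to 2.57), and 1.20 (0.68 to 1.74) in matched nuclei. Cd4, whose regulatory sequence drives the Cre, had 69 and 36 UMIs, 1.18 (0.59 to 1.81), and 1.85 (1.54 to 2.19) in matched nuclei. After thinning to 1000 UMIs the ratio of Cd4 in IL-17 T nuclei was 0.37, and without nuclei above 4000 UMIs it was 0.80. Nfat5, a factor of the osmotic stress response, had 48 and 18 UMIs, 1.64 (0.86 to 2.54), while its ratio in matched nuclei was 0.03 (-0.38 to 0.43). Kdm7a, a histone demethylase, Rsrc1, Fryl, Eif4a1, a translation initiation helicase, Lpp, Lmna, the gene of lamins A and C, and Larp4b lay between 1.03 and 1.32. Of the 12 called higher, the 10 highest are named here. After thinning Larp4b was at 0.07 and Eif4a1 at 0.67, and with at least 2 UMIs of the pair Fryl was at 0.59 and Lpp at 0.82. Of the 10, 5 were less than 2-fold higher under at least 1 of these 3 choices, and the others were Cct6a, Nfat5, Kdm7a, Rsrc1 and Lmna. The 9 lower genes reached down to -1.51. Slc23a2, a vitamin C transporter, had 12 UMIs in the knockout and 42 in the control nuclei, -1.51 (-2.62 to -0.60), and 0.66 (-0.10 to 1.44) in matched nuclei. Acvr2a, an activin receptor, had 20 and 61 UMIs, -1.33 (-2.16 to -0.61), and 0.47 (0.00 to 0.95) in matched nuclei. Osbpl9, a lipid transfer protein gene, had 28 and 86, -1.35 (-2.04 to -0.74), and -0.45 (-0.83 to -0.08) in matched nuclei. The other 6 were Mbp, Hnrnpf, Azin1, Mapkapk2, a kinase downstream of p38, Atp11b and Fndc3a, with intervals in matched nuclei that included 0. Of the 9, 8 were less than 2-fold lower under at least 1 of the same choices, with Slc23a2 at -0.68, Hnrnpf at -0.33 and Mapkapk2 at -0.64 after thinning, and Acvr2a was the exception.

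**Figure D5:**
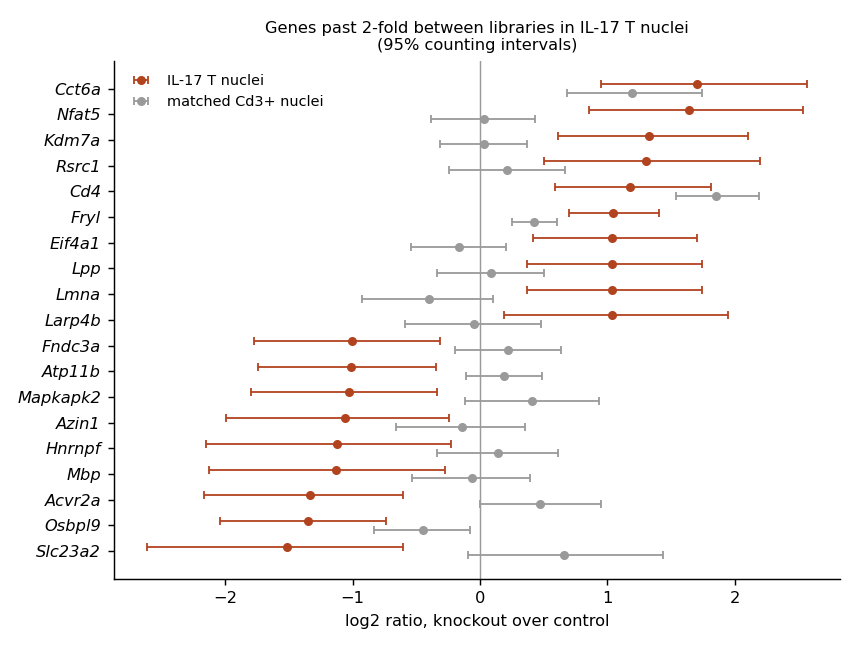
Log2 ratio of knockout over control (95% counting intervals) for the 10 highest and the 9 lower called genes in IL-17 T nuclei (coloured) and for the same genes in matched nuclei (grey). Cct6a, Cd4 and Fryl lie right of 0 in both sets of nuclei, and of the 9 lower genes Osbpl9 alone also has an interval below 0 in matched nuclei.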

How the data were processed

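The authors deposited raw counts per barcode, made with Cell Ranger ARC 2.0.1 on mm10 per the submitters' processing notes, for 32285 genes (UMI counts) and for peaks called in each library separately. The sources used here do not state filters before deposit, and no doublet caller was run. Peak values were 90.7% (knockout) and 91.7% (control) even, so each deposited count was halved and rounded up to fragments. Symbols in the files were used, and exons came from GENCODE vM21. Sums per library were compared as log2 ratios of CPM with 0.5 UMI added and exact conditional intervals of 2 Poisson counts (numpy 2.4.6, scipy 1.17.1, pandas 2.3.3). The rule for named genes took up to the 15 highest and 10 lowest genes called in both libraries, the 10 highest and 10 lowest between genotypes, the 5 highest and 5 lowest shared peaks, Th17 genes and members of other lists (23 lists in all). Members, lists and motifs were chosen with earlier results of these data known. The computation was run on simulated independent Poisson counts with known changed genes. Such counts lack the uneven spread of UMIs over nuclei seen here, so the calls were not checked against it. Depth, matching, thresholds and size factors were varied.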

Additional observations from a re-analysis of the deposited data

Results flagged for a closer look

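Stat4, the factor that relays IL-12 signals, was the only gene of the lists with at least 20 UMIs in both libraries whose intervals lay on opposite sides of 0. Its log2 ratio of IL-17 T over matched nuclei was 0.48 (0.30 to 0.65) in the knockout library, with 379 and 817 UMIs, and -0.28 (-0.47 to -0.09) in the control library, with 293 and 1064 UMIs. The difference between the libraries was not tested, since each genotype had 1 library.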

How the results depend on the processing

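No paired analysis was possible because each genotype had 1 library. Under the alternatives run, the Th17 median lay between 0.67 and 1.30 (knockout) and 0.67 and 0.88 (control), and the Th1 median between -0.69 and -0.01 (knockout) and -1.94 and -1.08 (control). The Th1 and Il17f share alternatives were chosen after the data were seen. Thinning gave shares of 1.59% (knockout) and 1.83% (control), and a minimum of 2 UMIs of the pair gave 2.32% and 1.71%. Each nucleus counted once gave 40.9% for Il17f in the control library. Genes higher in knockout IL-17 T nuclei numbered 52 against all unmatched nuclei and 54 with a minimum of 20 UMIs, and in control ones 72 and 76, and 18 with a minimum of 2 UMIs of the pair. Genes lower in the knockout library numbered 13 with 1 matched nucleus, 35 with at least 2 UMIs of the pair, 174 unmatched and 137 with a minimum of 20 UMIs, and in the control library 20 with 1 matched nucleus, 173 unmatched and 131 with 20 UMIs. Higher peaks numbered 800 (knockout) and 913 (control) on raw counts, 644 and 878 unmatched, 302 and 311 with a minimum of 10 fragments, and 53 in the knockout library without nuclei above 4000 UMIs. The log2 ratio of the Il17a and Il17f locus was 2.02 without those nuclei (knockout), and 2.17 (knockout) and 2.48 (control) in a 20 kb window. Genes higher in the knockout numbered 4 without nuclei above 4000 UMIs, 42 with 20 UMIs, 5 with at least 2 UMIs of the pair and 5 after thinning, and lower ones 39, 2 and 0 under the last 3 of these. The cause was not tested. Of named genes, under the choices that change the nuclei or the depth, 106 of 120 values over matched nuclei and 50 of 57 between genotypes stayed within the reported interval, and none changed sign. Of the genes over matched nuclei, 3 of 7 higher and 8 of 8 lower were under 2-fold in at least 1 of those values, and between genotypes 5 of 10 higher and 8 of 9 lower.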

Other observations

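Early-response genes were measured from a list of 15. In knockout IL-17 T nuclei 3 of 12 had an interval above 0 over matched nuclei and none below, where 8% and 7.37% of all genes did so, with a median log2 ratio of -0.02. In control ones it was 6 of 13 and 1, where 7.65% and 6.42% did, with a median of 0.31. Jun, an AP-1 subunit, had 0.38 (0.08 to 0.67) in the knockout and 0.97 (0.63 to 1.31) in the control library, with 38.9% and 22.8% of its UMIs in 1 nucleus. Of 12 genes of tissue residence and gut homing, Gpr183, a receptor for oxysterols, had 0.75 (0.23 to 1.25) in the knockout and 1.56 (1.18 to 1.94) in the control library, and Rgs1, a brake on chemokine receptor signalling, 1.10 (0.86 to 1.34) and 0.44 (0.20 to 0.67). Itga4, an integrin chain of gut homing, had -0.51 (-1.11 to 0.02) and -1.03 (-1.61 to -0.53). Among genes shared with regulatory T cells, Ctla4, an inhibitory receptor, had 0.94 (0.70 to 1.18) and 0.79 (0.56 to 1.01), while Ikzf2, the gene of Helios, had -0.66 (-1.04 to -0.31) and -1.41 (-1.79 to -1.07).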
